A study of Mus musculus with 3 samples.

Results

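Genes grouped as CXC and other migration receptors, 10 in all, were examined in mouse regulatory T cells (Treg cells): Cxcr2, Cxcr3, Cxcr4, Cxcr5, Cxcr6, Cx3cr1, Xcr1, Gpr183, Gpr83 and S1pr4. They were taken by name from the 22457 genes of the deposited tables, and all 10 members were found by their Ensembl identifiers. The cells were primary Treg cells from male adult mouse, with an age of 4 months. The labels used here give no strain, tissue, allele, treatment or sort gate. Poly(A) RNA was sequenced in 3 libraries that the labels number as technical replicates 1, 2 and 3 of biological replicate 1, so there is 1 group and no condition to compare. SDs below therefore describe the spread between these libraries, and p-values ask whether these libraries differ. Neither stands for a spread between biological replicates.

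All 10 genes encode receptors with a seven-pass membrane fold that signal through G proteins. CXC, CX3C and XC receptors read small secreted proteins, the chemokines, which are laid down by stromal cells, macrophages and dendritic cells and draw cells into follicles, inflamed tissue or bone marrow. Gpr183 (EBI2) reads oxysterols, and S1pr4 reads the lipid sphingosine-1-phosphate, whose blood to tissue gradient governs exit from lymphoid organs. In Treg cells, such receptors set which inflamed or lymphoid site a cell can reach, and Cxcr3 and Cxcr5 are known marks of Treg cells that enter type 1 inflammation and B cell follicles.

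A feature that the members share by descent is the short motif at the inner end of the third membrane helix, Asp-Arg-Tyr in most receptors of this class, which takes part in the switch that engages the G protein. The 30 coding bases around it are printed for each member, 5′ to 3′ on the coding strand from the GENCODE M21 transcripts (GRCm38), because they show which members keep the common form of the motif and which do not. The codons of the motif are in capitals. The motif was found by a search for Asp, Glu or His, then Arg, then Tyr, Phe or His, in the stretch of each receptor where the third helix ends, bounds that were chosen after the matches were seen. It gave 1 match per receptor.
Cxcr2: atcagcatgGACCGCTACctggccattgta
Cxcr3: ataagcttcGACAGATATctgagcatagtg
Cxcr4: atcagcctgGACCGGTACctcgctattgtc
Cxcr5: atagctgtaGACCGGTACctagccatcgtc
Cxcr6: atcacagtgGATCGTTTCattgtagtggtc
Cx3cr1: atcagcatcGACCGGTACcttgccatcgtc
Xcr1: atgaccatcCACCGATACctgtctgtagtg
Gpr183: ttgagcataGACCGCTTCttcgctgtggtg
Gpr83: atcgcagtgGACCGCCACcaggtcatcatg
S1pr4: acggccggcGAGCGCTTCgccaccatggtg
Cxcr2, Cxcr3, Cxcr4, Cxcr5 and Cx3cr1 carry Asp-Arg-Tyr codons there. Cxcr6 and Gpr183 have a Phe codon in the last place, Gpr83 a His codon, Xcr1 a His codon in the first place, and S1pr4 Glu-Arg-Phe codons. The coding sequences run from 1014 bases (Xcr1) to 1269 bases (Gpr83). The most alike pair, Cxcr3 and Cxcr5, had 55.0% identical bases in a global alignment, gaps counted. None of the members shared a 31-base stretch of coding sequence with a transcript of another gene (0% of 31-mers each), so coding reads of at least that length are specific to each member.

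The libraries held 3316275, 3079004 and 2782259 counts in the order 1, 2, 3. Levels are library-scaled counts (CPM, the count over the library total times 1000000). A gene counts as detected where no library is below 1 CPM. A count of 0 allows a level of up to 0.905, 0.974 and 1.08 CPM in libraries 1, 2 and 3 (3 counts). These limits and the exact 95% Poisson intervals below cover counting error only. The label was checked on Foxp3, Il2ra, Ctla4, Ikzf2 and Tnfrsf18, which were all detected (median 316 CPM), as were 6 of 6 general T cell genes (median 399 CPM).

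Of the 10 members, 7 were detected, against 10611 of all 22457 genes (47.3%). Among the 15171 genes with any count, as all members had, the share was 69.9%, near that of the members. The 7 fell into 2 tiers with a wide gap: Cxcr3, Gpr183, S1pr4 and Cxcr6 stood between 190.3 and 495 CPM on average, and Cxcr5, Cxcr4 and Gpr83 between 16.6 and 33.9 CPM. Cx3cr1, Xcr1 and Cxcr2 had 7, 5 and 1 counts over all 3 libraries. The median of all 10 members was 27.6 CPM, beside 1.08 CPM over all genes and 18.0 CPM over the 15171 genes with any count. Together the 10 genes had 1251, 1274 and 1160.2 CPM in libraries 1, 2 and 3, of which Cxcr3 held 40.3% over the summed counts, Gpr183 20.1%, S1pr4 18.1% and Cxcr6 15.6%.

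**Figure D1:**
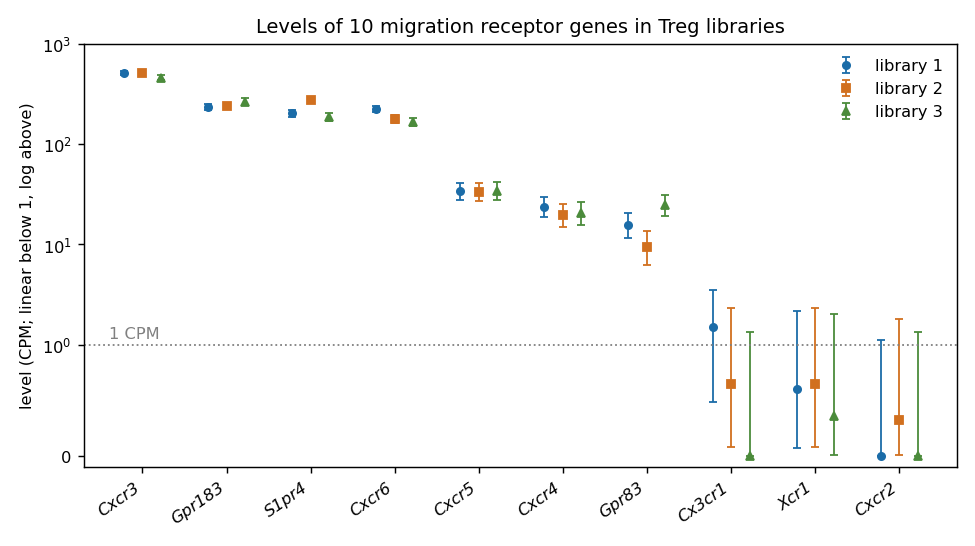
Level of each receptor gene in CPM (linear below 1, log above) in libraries 1 (circles), 2 (squares) and 3 (triangles), with exact 95% Poisson intervals as bars; the dotted line marks 1 CPM. Cxcr3, Gpr183, S1pr4 and Cxcr6 lie at 168 CPM or more in every library, Cxcr5, Cxcr4 and Gpr83 between 9.42 and 34.1 CPM, and Cx3cr1, Xcr1 and Cxcr2 at a handful of counts or none.

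Among the receptors for inflammatory chemokines, Cxcr3 was the most abundant member. Cxcr3 (chromosome X, 101731535 to 101734269, minus strand, GRCm38) binds the interferon-induced ligands Cxcl9, Cxcl10 and Cxcl11. It had 1693, 1582 and 1278 counts in libraries 1, 2 and 3, or 511, 514 and 459 CPM (495 ± 30.5, SD, n = 3). Library 3 was lowest, and its interval of 434 to 485 CPM lay just under those of library 1 (486 to 535) and library 2 (489 to 540). By CPM, Cxcr3 ranked at percentile 98.4 of the genes with any count.

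Cxcr6, the receptor for the membrane-bound chemokine Cxcl16 and a receptor of T cells in liver and other tissues, lies on chromosome 9 (123806475 to 123811760, plus strand). It had 743, 551 and 467 counts, or 224, 179 and 168 CPM (190.3 ± 29.8, SD, n = 3). Library 1 was high, with an interval of 208 to 241 CPM that did not meet those of library 2 (164 to 195) or library 3 (153 to 184). The gene lies within the span of Fyco1 on the opposite strand, without exon overlap. Fyco1 had 467, 496 and 358 counts, highest in library 2, so it did not follow the order seen for Cxcr6.

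Cx3cr1, the receptor for fractalkine (Cx3cl1) on monocytes and some cytotoxic lymphocytes (chromosome 9, 119901616 to 120069879, minus strand), had 5, 2 and 0 counts. It overlaps 78 exon bases of the antisense gene Gm33858. Over the summed libraries that is 0.763 CPM with an interval of 0.307 to 1.57. Cxcr2, the neutrophil receptor for chemokines of the Cxcl1 and Cxcl2 kind (chromosome 1, 74153989 to 74161246, plus strand), had 0, 1 and 0 counts, or 0.109 CPM summed, with an interval of 0.00276 to 0.607. Xcr1, the receptor for Xcl1 that marks cross-presenting dendritic cells (chromosome 9, 123852315 to 123862029, minus strand), had 2, 2 and 1 counts, or 0.545 CPM summed, with an interval of 0.177 to 1.27. All 3 genes were near the limit that a count of 0 allows, and a difference between libraries was not detectable for them at this depth.

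The homeostatic chemokine receptors were low. Cxcr5, which reads Cxcl13 and brings B cells and follicular T cells into follicles (chromosome 9, 44511787 to 44561877, minus strand), had 113, 103 and 95 counts. Its level was 34.1, 33.5 and 34.1 CPM (33.9 ± 0.381, SD, n = 3), nearly the same in every library. Cxcr4, which reads Cxcl12 and holds cells in bone marrow (chromosome 1, 128588199 to 128592293, minus strand), had 79, 60 and 57 counts. Its level was 23.8, 19.5 and 20.5 CPM (21.3 ± 2.27, SD, n = 3), and the 3 counting intervals overlapped. An exon of Cxcr5 overlaps an exon of Bcl9l on the opposite strand by 110 bases outside the coding sequence, and Bcl9l had 88, 111 and 79 counts. Since strand use in the counting is not given in the sources used here, reads in that stretch cannot be assigned.

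Of the receptors for lipids and other ligands, Gpr183 and S1pr4 were both abundant. Gpr183 (chromosome 14, 121952551 to 121965195, minus strand), which places B cells, dendritic cells and T cells along oxysterol gradients in lymphoid tissue, had 788, 736 and 742 counts. That is 238, 239 and 267 CPM (248 ± 16.4, SD, n = 3), with overlapping intervals of 221 to 255, 222 to 257 and 248 to 287. The locus sits within Ubac2 on the other strand, again without exon overlap, and Ubac2 had 261, 262 and 252 counts.

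S1pr4, a sphingosine-1-phosphate receptor of blood cells (chromosome 10, 81497747 to 81500132, minus strand), had 674, 856 and 519 counts. Its level was 203, 278 and 187 CPM (223 ± 48.7, SD, n = 3). Library 2 stood apart, with an interval of 260 to 297 CPM against 188 to 219 in library 1 and 171 to 203 in library 3.

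Gpr83, a peptide receptor whose transcript is known as a mark of Treg cells over other CD4 T cells (chromosome 9, 14860210 to 14870789, plus strand), was the least abundant detected member, with 52, 29 and 69 counts. Its level was 15.7, 9.42 and 24.8 CPM (16.6 ± 7.73, SD, n = 3), the widest relative spread of the 7 (coefficient of variation 46.5%, against 1.12% for Cxcr5). Library 2 was low and library 3 high: their intervals, 6.31 to 13.5 and 19.3 to 31.4 CPM, did not meet.

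To compare levels between genes, CPM were divided by coding length. Cxcr3 led with 449 CPM per coding kilobase (percentile 98.5 of 14916 genes), followed by Gpr183 at 231, S1pr4 at 192, Cxcr6 at 177, Cxcr5 at 30.2, Cxcr4 at 19.7, Gpr83 at 13.1, Cx3cr1 at 0.677, Xcr1 at 0.530 and Cxcr2 at 0.101. Gpr183 and S1pr4, S1pr4 and Cxcr6, Cxcr4 and Gpr83, and Cx3cr1 and Xcr1 did not differ beyond their spread, since their ranges over the 3 libraries overlapped. The steps from Cxcr3 to Gpr183 (1.94-fold), from Cxcr6 to Cxcr5 (5.87-fold), from Cxcr5 to Cxcr4 (1.53-fold) and from Gpr83 to Cx3cr1 (19.4-fold) exceeded those ranges, as did the step from Xcr1 to Cxcr2 (5.27-fold), which rests on 5 counts and 1 count. A 3-library paired permutation test could not give a p under 0.25, so no test was made of these steps.

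Part of this order depended on which length was used, because the untranslated exons differ in size: Cxcr3 has 1731 exon bases in all and Gpr83 has 5095. Per exon kilobase, Cxcr3 (286 CPM) remained first and Gpr83 (3.26), Cx3cr1 (0.160), Xcr1 (0.121) and Cxcr2 (0.0355) kept their places. Cxcr6 (98.5), S1pr4 (93.3) and Gpr183 (85.8) then stood in the opposite order, with overlapping ranges. Cxcr4 (11.8) stood 1.16-fold above Cxcr5 (10.2), with ranges that did not overlap. Over the libraries, Cxcr5 ran from 33.5 to 34.1 CPM, narrower than its pooled 95% Poisson interval of 30.2 to 37.9 CPM. The ranges thus leave out counting error, and the order of these 2 receptors per exon kilobase is uncertain. Per coding base, Cxcr3 counts were 14.9 ± 1.03 times those of Cxcr5 and 22.9 ± 2.55 times those of Cxcr4 (SD, n = 3). Per exon base the ratios were 28.1 ± 1.94 and 24.4 ± 2.73.

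**Figure D2:**
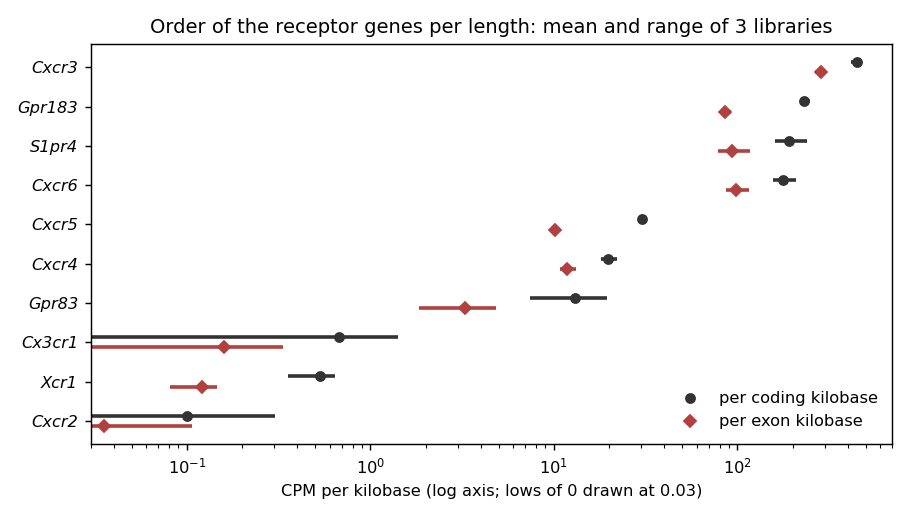
Mean level (markers) and range over the 3 libraries (lines) in CPM per kilobase, on a log axis, divided by coding length (circles) or by the length of all exons (diamonds), with lows of 0 drawn at 0.03. Cxcr3 is first and Gpr83, Cx3cr1, Xcr1 and Cxcr2 are last on both scales, while Gpr183, S1pr4 and Cxcr6, and also Cxcr5 and Cxcr4, trade places.

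The libraries themselves were compared with a chi-square test of each gene's counts against the library totals, adjusted over all 10043 genes with 30 or more counts. Of the 7 members tested, 4 differed (S1pr4, Cxcr6, Gpr83 and Cxcr3), against 22.7% of all genes tested. That share grew with depth, to 34.1% of the genes with 1000 to 3000 summed counts, where Gpr183, S1pr4 and Cxcr6 lie, and 60.3% above 3000, where Cxcr3 lies. S1pr4 was 1.49-fold higher in its highest than in its lowest library (adjusted p = 2.12e-12, chi-square), Cxcr6 1.33-fold (adjusted p = 1.53e-05), Gpr83 2.63-fold (adjusted p = 0.000422) and Cxcr3 1.12-fold (adjusted p = 0.0244). Gpr183 (1.12-fold, adjusted p = 0.129, chi-square), Cxcr4 (1.22-fold, adjusted p = 0.620) and Cxcr5 (1.02-fold, adjusted p = 0.992) did not pass.

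These calls allow for counting noise only. In edgeR's quasi-likelihood test of each library against the other 2, which allows for spread between libraries, none of the 7 passed (0 of 7; 3 had an unadjusted p under 0.05 in some contrast, namely Cxcr6, Gpr83 and S1pr4), and 38 genes passed in all. There, S1pr4 was higher in library 2 by 0.52 on the log2 scale (adjusted p = 0.446) and Gpr83 in library 3 by 0.95 (adjusted p = 0.277). DESeq2's Wald test called no member either, and 2 genes in all. The chi-square calls also rested on single libraries: without library 2, S1pr4 (adjusted p = 0.339) and Gpr83 (adjusted p = 0.0678) did not pass, without library 1 Cxcr6 did not (adjusted p = 0.552), and without library 3 neither Gpr83 (adjusted p = 0.157) nor Cxcr3 (adjusted p = 0.943) did.

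Counting density moved with these comparisons over the whole table. The totals of libraries 1 and 3 stood at a ratio of 1.19, and the median gene under 0.2 counts per coding base had a count ratio of 1.20, but the median gene at 1 to 1.8 counts per base had only 1.07. Cxcr3, at 1.38 counts per coding base, had a ratio of 1.32 and Cxcr6, at 0.547, had 1.59, both above the totals. Gpr183, at 0.705, had 1.06. Against totals of genes under 1 count per coding base, Cxcr3 no longer passed (adjusted p = 0.0659, chi-square) and the other 3 did. Those totals leave out Cxcr3 and genes as dense as it, so they do not set Cxcr3 against genes of like density. The part of density in the levels was not tested.

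GC content moved with the libraries as well. Of 10 classes of genes by GC content of the coding sequence, the highest (59.6% or more) had a median log2 level over the mean of the 3 libraries of -0.09 in library 1, 0.09 in library 2 and 0.01 in library 3. S1pr4, with 62.9% GC, is in that class, and its own values were -0.13, 0.32 and -0.25. Against the totals of genes of the same GC class, an alternative added after the data were seen, S1pr4 (adjusted p = 3.82e-07, chi-square), Cxcr6 (adjusted p = 8.99e-05), Gpr83 (adjusted p = 0.000222) and Cxcr3 (adjusted p = 0.0368) still passed.

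**Figure D3:**
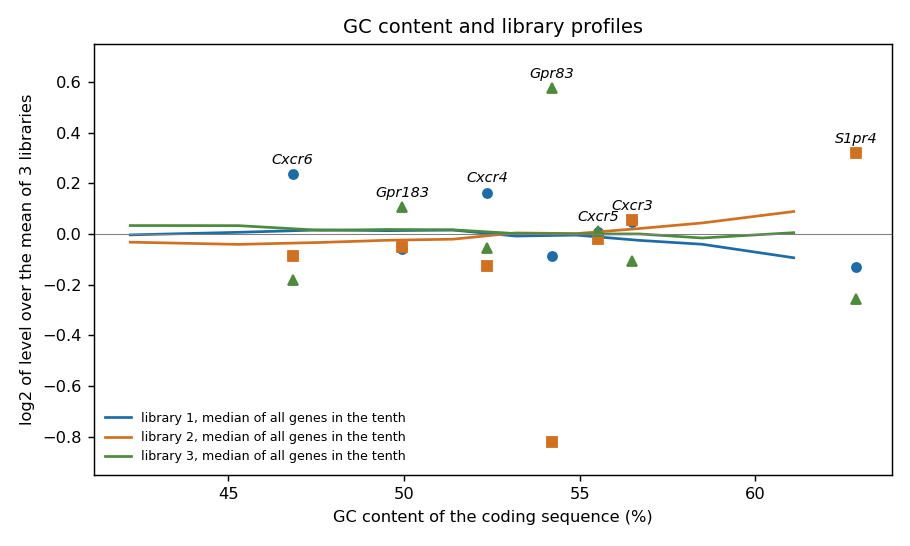
Level in each library over the mean of the 3 libraries (log2) against the GC content of the coding sequence in percent; lines join the medians of genes in 10 classes of GC content, with 1 line per library, and markers show the 7 receptor genes with 30 or more counts (circles library 1, squares library 2, triangles library 3). S1pr4 lies at the GC-rich end, where the line of library 2 is highest, and its squares and triangles lie farther from 0 (0.32 and -0.25) than the lines there.

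Markers of other cells that carry these receptors were set beside them. B cell markers, 9 of 13 detected with Cd79b and Cd79a highest, summed to 74.5, 189 and 219 CPM in libraries 1, 2 and 3, and to 29.9, 136 and 146 CPM without Cd79b. Of the members that B cells express, Cxcr5 had 34.1 CPM in library 1 and in library 3, with counting intervals of 28.1 to 41.0 and 27.6 to 41.7 CPM. What part B cells had in Cxcr5 was not tested. Gpr183 (238, 239 and 267 CPM) had the same order over libraries as the B cell sum, with 1.12-fold between its highest and lowest level, and the part of B cells in it was not tested. Monocyte and macrophage markers summed to 44.6, 108 and 59.3 CPM, with 5 of 12 detected and Cd68 and Ccr1 highest, while the few Cx3cr1 counts were highest in library 1. Lyz2 (1, 49 and 11 counts), Apoe (11, 84 and 29), C1qb (7, 28 and 7) and Csf1r (5, 26 and 12) were highest in library 2, as S1pr4 was. Cd68 had 52, 68 and 47 counts, while Ccr1 (65, 44 and 48) and Marco (4, 3 and 2) were highest in library 1. What part these cells had in S1pr4 or Cx3cr1 was not tested. Neutrophil markers summed to 3.92, 8.44 and 5.75 CPM, with 1 of 10 detected and Mpo and Camp at 0, beside the 1 count of Cxcr2.

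Dendritic cell markers summed to 148, 208 and 147 CPM, an order close to that of S1pr4 (203, 278 and 187 CPM). They were 3 of 10 detected, Bst2 and Irf8 held most of the counts, and Clec9a was at 0. Flt3 had 1, 25 and 6 counts, Siglech 2, 13 and 3, and Cd209a 0, 8 and 1. Itgax had 3, 10 and 7 counts and Batf3 2, 5 and 1, so these too were highest in library 2. Zbtb46 (11, 13 and 15) and Tlr3 (3, 2 and 4) were highest in library 3. Without Bst2 the dendritic cell markers summed to 74.8, 111 and 73.0 CPM. NK cell markers summed to 99.8, 81.5 and 73.3 CPM, in the same order as Cxcr6 (224, 179 and 168 CPM). Their counts lay on Gzma (179, 126 and 125) and Prf1 (142, 108 and 72), granule genes that T cells also use, and without Gzma they summed to 45.8, 40.6 and 28.4 CPM. The defining NK genes were near 0, with Ncr1 at 0, 3 and 2 counts, Klrb1c at 4, 3 and 3, and Klra4 at 0 (Klrb1c and Klra4 share 61.6% and 24.8% of their coding 31-mers with other genes). What part dendritic or NK cells had in S1pr4 or Cxcr6 was not tested, and in bulk RNA more cells of a type and more RNA per cell cannot be told apart.

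Plasma cell markers, some of which such as Prdm1 are also Treg genes, summed to 308, 314 and 291 CPM (4 of 6 detected), and to 82.9, 110.4 and 151 CPM without Prdm1. Within that last sum, Xbp1 had 253, 246 and 205 counts and Sdc1 1, 0 and 4. Igha (12, 68 and 128 counts), Jchain (6, 14 and 68) and Mzb1 (3, 12 and 15) rose from library 1 to library 3. The marrow-homing receptor Cxcr4 had its highest level in library 1, but its counting intervals overlapped between the libraries. What part plasma cells had in Cxcr4 was not tested. T follicular genes, 4 of 6 detected and mostly on Icos and Pdcd1, which Treg cells also express, summed to 852, 868 and 873 CPM, about as even as Cxcr5. Of these, Il21 had 3, 0 and 0 counts and Ascl2 had 0, 0 and 2, while Bcl6 had 86, 85 and 60. The CD8 coreceptor genes summed to 21.4, 20.1 and 32.3 CPM, nearly all on Cd8b1, with Cd8a at 0, 0 and 1 counts. Cd8b1 was highest in library 3, as Gpr83 was (24.8 CPM there), and its part in Gpr83 was not tested. The Treg list summed to 1746, 1714 and 1874 CPM and the general T cell list to 2852, 3031 and 3127 CPM.

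**Figure D4:**
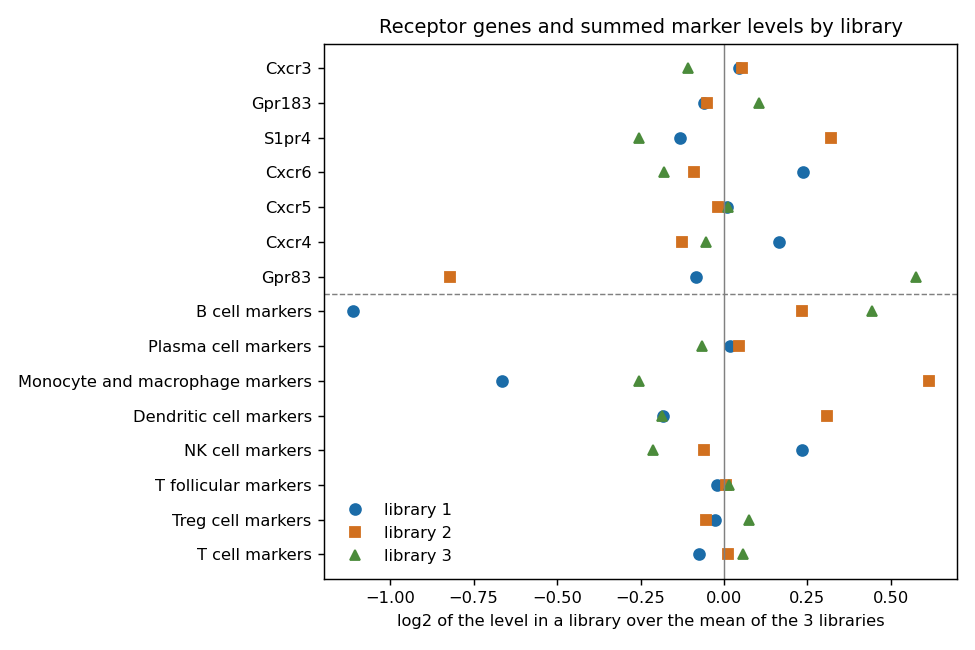
Log2 of the level in each library over the mean of the 3 libraries for the 7 receptor genes with 30 or more counts (above the dashed line) and for the summed CPM of marker lists (below it), with circles for library 1, squares for library 2 and triangles for library 3. B cell markers are low in library 1 (74.5 CPM against 189 and 219). Cxcr5 is level across the libraries, S1pr4 is high in library 2 and Gpr83 is low in library 2 and high in library 3. What part other cells had in the receptor levels was not tested.

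The listed chemokine ligands were nearly absent from the same RNA, with 2 exceptions. No ligand gene of Gpr83 was looked up. Of the 3 Cxcr3 ligands, Cxcl10 had 32, 52 and 54 counts (15.3 ± 5.07 CPM, SD, n = 3; adjusted p = 0.0270, chi-square) and Cxcl9 and Cxcl11 had 1 count each in all. The Cxcl10 call did not hold without library 1 or without library 3. Of the ligands of Cxcr4, Cxcr5, Cxcr6, Cx3cr1 and Xcr1, the T and NK cell product Xcl1 had 49, 47 and 79 counts (19.5 ± 7.73 CPM, SD, n = 3; adjusted p = 0.00146, chi-square), and its receptor Xcr1 had 5 counts in all. The Xcl1 call did not hold without library 3. Cxcl16 had 0, 4 and 2 counts, Cxcl13 had 1, 0 and 2, and Cxcl12 and Cx3cl1 had none. The 6 neutrophil ligands had at most 3 counts in any library: Cxcl2 had 0, 3 and 3, Cxcl3 had 3, 1 and 0, Cxcl5 1 and Ppbp 2 in all, and Cxcl1 and Cxcl15 none. Cxcl2 and Cxcl3 share 25.2% of their coding 31-mers. Of the enzymes that shape oxysterol gradients, the makers Ch25h and Cyp7b1 had 1 count each in all. Hsd3b7, which breaks the ligand down, had 48, 40 and 53 counts, but its coding sequence is shared in full (100%) with other annotated transcripts, so its level is uncertain.

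In the sphingosine-1-phosphate pathway, S1pr1, the receptor that drives exit from lymph nodes, was more abundant than S1pr4 and had 1037, 1008 and 777 counts (306 ± 24.7 CPM, SD, n = 3). Per coding base, S1pr1 counts were 1.55, 1.19 and 1.51 times those of S1pr4 in libraries 1, 2 and 3, and per exon base the mean ratio was 1.10 ± 0.155. S1pr5 had 1 count in each library. The degrading lyase Sgpl1 (76.6 ± 12.8 CPM) and the kinase Sphk2 (66.9 ± 17.1 CPM) were detected, while the exporter Spns2 had no count. Of the 5 pathway genes tested, S1pr1, S1pr2, Sphk2 and Sgpl1 differed between the libraries (4 of 5, against 22.7% of all genes), and each had its lowest count in library 3, as S1pr4 did. S1pr2 had 49, 61 and 26 counts and Sphk2 223, 258 and 138, both highest in library 2 like S1pr4. The number of the list that passed was 3, 2 and 0 without libraries 1, 2 and 3.

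Beside the members, a list of CC and atypical chemokine receptors that also holds the CXC receptor Cxcr1 had 11 of 16 genes detected. Its median was 24.8 CPM, close to the 27.6 CPM of the 10 members. Of the 11 tested, 4 differed between the libraries, Ccr6, Ccr7 and Ccr8 among them, against 22.7% of all genes. Without libraries 1, 2 and 3 that number was 2, 4 and 0. Ccr2, Ccr8 and Ccr6 led at 350.1, 299 and 126 CPM per coding kilobase, and Ackr1 and Cxcr1 had no count. Ccr2 thus stood between Cxcr3 and Gpr183 per coding kilobase, but per exon kilobase it had 58.0 CPM, below Cxcr6 (98.5), S1pr4 (93.3) and Gpr183 (85.8). Other G protein coupled receptors of lymphocytes were more often present, with 19 of 21 detected, a median of 102 CPM and 6 of 19 tested that differed (22.7% of all genes did), a number that was 3, 5 and 0 without libraries 1, 2 and 3. Adgre5 (CD97), an adhesion receptor with 23.4% of its coding 31-mers in Ddx39, had 527 ± 52.5 CPM, the lysophosphatidic acid receptor Lpar6 256 ± 8.45 and P2ry10 183 ± 9.88, while Ptgdr2 had 2 counts in all and C5ar1 none.

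Of the 10 members, 5 lie on chromosome 9, and Cxcr6 and Xcr1 belong to a run of chemokine receptor genes there. Along this run, neighbours differed widely per coding kilobase. Ccr9, which starts 128 kb before Cxcr6, had 15.4 CPM per coding kilobase, Cxcr6 177 and Xcr1, whose start lies 55.6 kb beyond that of Cxcr6, 0.530. Ccr1 (16.0), Ccr1l1 (0.337), Ccr3 (30.2) and Ccr2 (350.1) follow, the last at 295 kb from the start of Cxcr6. Ccr2 was above Cxcr6 per coding kilobase but below it per exon kilobase (58.0 against 98.5 CPM). Ccr2 shares 17.2% of its coding 31-mers with other transcripts, so its counts could be affected by how shared reads were treated. Unlike the counts of Cxcr6, those of Ccr2 (1327, 1245 and 1032) did not pass the test between libraries (adjusted p = 0.210, chi-square). These neighbours are some of the genes there, and were named after their values were seen.

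**Figure D5:**
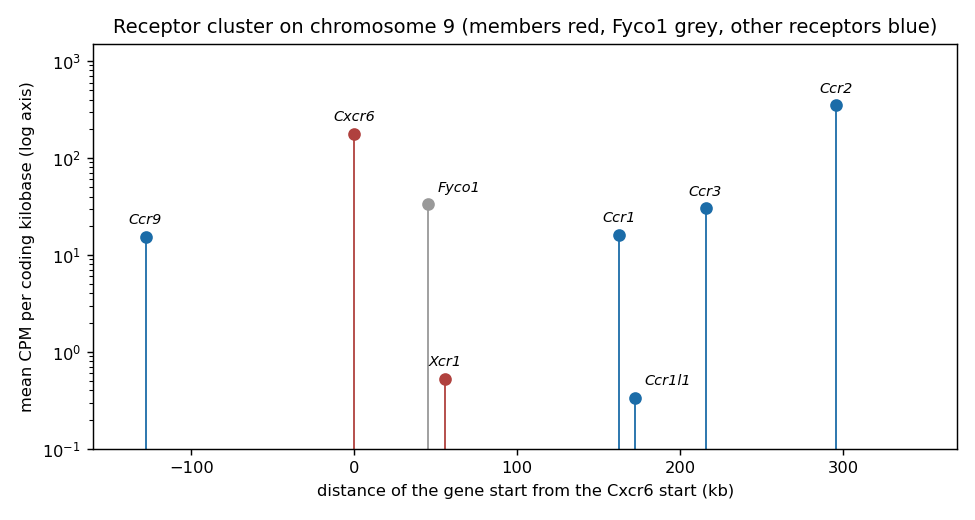
Mean level in CPM per coding kilobase (log axis) of some receptor genes around Cxcr6 on chromosome 9, placed by the distance of each gene's start from that of Cxcr6 in kilobases; Cxcr6 and Xcr1 are red, other receptors blue and Fyco1, whose span holds Cxcr6, grey. Per coding kilobase, Ccr2 (350.1) and Cxcr6 (177) are high, an order that turns round per exon kilobase (58.0 and 98.5), and Xcr1 (0.530) and Ccr1l1 (0.337) are the lowest of the genes shown.

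Downstream of the receptors, the signalling genes were broadly present. Of 14 G protein subunit genes, 12 were detected, and Gnai2, the inhibitory alpha subunit through which chemokine receptors act in leukocytes, led at 441 ± 101 CPM with 1527, 1637 and 924 counts, followed by Gnai3 at 237 ± 7.18 and Gna15 at 172 ± 16.6. Gnai1 had no count and Gna12 6, 3 and 5. Gnai2 differed between the libraries (adjusted p = 1.26e-26, chi-square) in the order of S1pr4, highest in library 2 and lowest in library 3, and Gna15 and Gnb2 also passed (3 of 12 tested, near the 22.7% of all genes, and 3, 2 and 1 without libraries 1, 2 and 3). Of 15 genes that switch receptors off, 13 were detected and 3 of 13 tested differed (Rgs1, Rgs10 and Rgs14), again near the 22.7% of all genes, with 3, 2 and 0 without libraries 1, 2 and 3. Rgs1, which dampens Gi signals, had 313 ± 43.9 CPM, the receptor kinase Grk2 292 ± 8.70 and Rgs14 250.3 ± 26.4, while Rgs18 and Grk3 had 14 and 6 counts in all.

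All 16 genes of the migration machinery were detected (16 of 16, median 308 CPM), and 10 of the 16 differed between the libraries, against 22.7% of all genes, 34.1% of those with 1000 to 3000 counts and 60.3% of those above. Dock2, the Rac activator that lymphocytes need to move towards chemokines, had 6180, 5586 and 4405 counts (1754 ± 150 CPM), the myosin heavy chain Myh9 1237 ± 198 CPM and the actin regulator Coro1a 959 ± 80.5 CPM. Coro1a passed the test (adjusted p = 9.96e-08, chi-square) although its counts of 2939, 2911 and 2909 were nearly equal, since the library totals were not. It had 2.11 counts per coding base. At 1.8 or more counts per coding base, the median gene had a count ratio of 1.02 between libraries 1 and 3. Of the 80 genes there, 55 passed. The part of density in the Coro1a call was not tested. Pik3r5 and Rac1 were lowest, at 50.8 ± 11.7 and 47.2 ± 4.36 CPM. The number of these genes that passed was 5, 12 and 3 without libraries 1, 2 and 3.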

How the data were processed

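The authors deposited whole-number counts per gene, 1 table for each of the 3 libraries, not scaled. Per the submitters' deposited notes, the genome was mm10 and the gene models were GENCODE M4. No aligner, counting program, strand setting or rule for duplicate and multiply matching reads is named in the labels or notes at hand, and any of them could change a level. Symbols, coordinates and lengths came from GENCODE M21 (GRCm38, the same assembly), which named 22195 of 22457 identifiers. For 4 of the 10 receptors the gene version is the same in both releases.

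CPM, chi-square tests (2 degrees of freedom, Benjamini-Hochberg adjustment over all genes with 30 or more counts, threshold 0.05) and exact Poisson intervals were computed with scipy 1.17.1. Alternatives used edgeR 4.0.16 (TMM, filterByExpr) and DESeq2 1.42.0, other totals and filters, and each library left out. The tests were checked on simulated counts with Poisson noise only. That check held no further spread between libraries, so it does not show how the tests behave under such spread. The receptors, 10 pathway lists and 10 marker lists were chosen with earlier results of these data known. The text names all receptors, whole pathway lists of up to 6 genes, the 3 highest and 2 lowest genes of longer ones, and the 2 highest markers and those at 0; genes outside this rule were chosen after their values were seen. Adrbk1 and Adrbk2 were read as Grk2 and Grk3. Some genes of these lists are not reported here.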

Additional observations from a re-analysis of the deposited data

How the results depend on the processing

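Detection of the same number of receptors (7 of 10) held at 0.5 and at 5 CPM and without any library, and the number of overlapping neighbours in the order per length stayed within 1.5 times of 4 under exon length and without each library. The number of receptors that differed between libraries, 4 by the chi-square test, was 4 with TMM or DESeq2 scaling, with lower or no count minimum and within GC classes, and 3 against totals of sparsely covered genes. It was 2 to 3 when a library was left out, and 0 by edgeR's quasi-likelihood test and 0 by DESeq2's Wald test. Over all genes, the main count of 2277 became 904 to 1466 with a library left out, 38 by edgeR and 2 by DESeq2. The cause of these changes was not tested. Mean levels moved by more than their SD only against the smaller totals of sparsely covered genes, which raise every level (Cxcr3 to 602 CPM). Depth limits Cx3cr1, Xcr1 and Cxcr2, for which no difference could be tested. No paired analysis was possible because there is only 1 group.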

Other observations

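For each receptor that differed between the libraries, the genes with the nearest profile of log2(CPM + 1), centred over the 3 libraries, were looked up among 8446 genes with 100 or more counts. With only 3 libraries of biological replicate 1, such a list is a description of these libraries and names no relation. Nearest to S1pr4 was Snx9 (80, 102 and 61 counts), followed by Slamf7, Gvin1, Amacr and Zkscan17. Nearest to Cxcr6 was Trp53bp1 (545, 406 and 343 counts), followed by Parpbp, Dpp8, Espl1 and Ccdc93. Gpr83 had no neighbour as close, with a distance of 0.0909 to Iqcb1 (71, 44 and 97 counts), followed by Serpinc1, Gtf2ird1, Fabp5 and Zwilch, against 0.00706 between S1pr4 and Snx9. Nearest to Cxcr3 were Zdhhc17 (105, 98 and 79 counts), Slc35a1, Wdr5, Snx13 and Pecam1.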
